A study of Mus musculus with 6 samples.

Results

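The costimulatory receptors of the TNF receptor and CD28 families, with the adaptors Traf1 and Traf2, were followed in regulatory T cells (Tregs) taken from mouse melanomas. The 10 genes were chosen by symbol, and all 10 had a row among the 12153 genes of the expression table. Tumors of B16.F10, a transplantable mouse melanoma line, were taken at day 15 from mice of 2 genotypes, and bulk RNA-seq was made from 3 libraries of each. Both genotypes carried floxed *Nr3c1*, the gene of the glucocorticoid receptor (GR). The Nr3c1-Foxp3Cre mice also carried Foxp3-YFP/Cre, so that Cre was driven by the *Foxp3* promoter and was limited to cells that had expressed *Foxp3*, whereas the labels name no Cre or YFP allele in the control mice. The labels give a sort on CD45, CD4 and CD25, and the methods of the study give one on Foxp3-YFP, so a difference in allele or sort cannot be told apart from the loss of *Nr3c1*. Neither source says whether each library came from 1 mouse or from a pool, and p-values therefore measure only the spread between these libraries. Animal age is not given in the labels.

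Receptors of these families set how strongly a T cell responds once its antigen receptor is engaged. CD28 and ICOS bind ligands of the B7 family on antigen-presenting cells and act through phosphoinositide 3-kinase, whereas GITR, OX40, 4-1BB, TNFR2, DR3 and CD27 bind TNF family ligands and recruit TRAF adaptors, which feed the NF-κB pathways. Tregs in tumors are known for high levels of several of these receptors, and antibodies against GITR, OX40, 4-1BB, CD27 and ICOS have been developed to act on T cells in tumors. The comparison asked whether the mRNA of these receptors and adaptors differed when GR was lost from Tregs. The protein encoded by *Tnfrsf18* is named GITR for its induction by glucocorticoids.

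Of the members, 5 lie on chromosome 4, 2 on chromosome 1, 2 on chromosome 2 and 1 on chromosome 6. *Tnfrsf4* and *Tnfrsf18* are neighbors on chromosome 4 of mm10, 9.55 kb apart on the same strand with 0 coding genes between them. *Cd28* and *Icos* lie 204567 bases apart on chromosome 1 with 1 coding gene between them, *Ctla4*, the inhibitory receptor of the same family. The start regions of both neighbors on chromosome 4 are shown because GITR is named for glucocorticoids and OX40 lies beside it, and that of *Tnfrsf9* because it held matches to motifs of inducible transcription factors. They come from RefSeq on GRCm38.p6, the assembly known as mm10, and each covers 250 bases before to 50 bases after an annotated start. Matching by symbol gave 10 windows for 8 of the 10 members. *Cd28* and *Icos* had none. The *Tnfrsf4* window ends upstream of the GENCODE gene start given with its values, and 0 GENCODE transcripts start in it. The windows of *Tnfrsf18* (chr4:156026072-156026371, plus strand), *Tnfrsf4* (chr4:156013445-156013744, plus strand) and the second start of *Tnfrsf9* (chr4:150927749-150928048, plus strand) read, 5′ to 3′, with capitals for matches to an NF-κB consensus and to the AP-1 motif:
Tnfrsf18: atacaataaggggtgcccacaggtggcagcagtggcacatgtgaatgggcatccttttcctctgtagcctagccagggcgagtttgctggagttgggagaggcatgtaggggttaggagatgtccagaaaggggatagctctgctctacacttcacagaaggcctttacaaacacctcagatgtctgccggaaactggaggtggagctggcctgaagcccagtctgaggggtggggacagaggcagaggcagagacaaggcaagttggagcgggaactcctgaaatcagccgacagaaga
Tnfrsf4: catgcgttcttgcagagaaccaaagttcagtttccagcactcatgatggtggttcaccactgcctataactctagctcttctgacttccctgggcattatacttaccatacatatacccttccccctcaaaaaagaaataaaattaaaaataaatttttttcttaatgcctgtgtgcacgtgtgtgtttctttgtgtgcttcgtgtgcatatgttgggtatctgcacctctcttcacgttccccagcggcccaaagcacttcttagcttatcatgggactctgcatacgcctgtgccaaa
Tnfrsf9: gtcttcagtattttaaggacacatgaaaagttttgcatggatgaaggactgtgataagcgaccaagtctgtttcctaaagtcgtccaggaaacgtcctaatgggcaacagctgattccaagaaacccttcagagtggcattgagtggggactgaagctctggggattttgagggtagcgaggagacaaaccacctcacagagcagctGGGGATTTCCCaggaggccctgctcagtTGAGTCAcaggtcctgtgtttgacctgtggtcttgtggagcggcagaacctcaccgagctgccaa

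On both strands, the GR half-site AGAACA was found in 1 of the 10 member windows, the first start of *Tnfrsf25*, against 19% of all 32851 windows. The full palindromic GR site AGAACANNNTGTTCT, which contains the half-site, was in 0 of the 10 and in 3 windows overall (0.00913%). The AP-1 motif TGAGTCA was in 1 of the 10 (*Tnfrsf9*) and in 5.2% of all windows. A match to the NF-κB consensus was in 2 of the 10 (*Tnfrsf9* and the second start of *Tnfrsf25*) and in 8.46% of all, and the CRE motif TGACGTCA was in 0 of the 10 and in 1.79% of all. In the *Tnfrsf9* window the NF-κB letters lie at bases 208 to 218, where 2 matches overlap each other, and the AP-1 letters at bases 236 to 242, so the motifs of the 2 factors do not overlap. A match describes letters only, and the lack of one says only that these letters are not in this window.

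Each value is in log2 CPM, a log2 count scaled to a common library total that the authors also quantile normalized across libraries, and the files do not give the reads per library. *Nr3c1* was at 7.15, 7.59 and 6.88 in the control libraries and at 6.14, 5.45 and 5.90 in the Nr3c1-Foxp3Cre libraries, with a log2 fold change of -1.38 (SE 0.21, limma adjusted p = 0.120) and no overlap. *Tsc22d3* (GILZ), a classic GR target, fell by 1.56 (SE 0.16, limma adjusted p = 0.0342). This call was lost when control 3 or any single Nr3c1-Foxp3Cre library was left out, with limma adjusted p of 0.0639 to 0.154. *Foxp3* itself was low, at 3.39 to 4.42 in the control and 3.50 to 4.47 in the Nr3c1-Foxp3Cre libraries, whereas *Il2ra*, which encodes the sorting marker CD25, was at 8.20 to 8.60 and 8.23 to 8.75. Markers of other cells were present: the summed level of 6 melanoma genes was 3563 to 9609 CPM in control and 3934 to 10025 CPM in Nr3c1-Foxp3Cre libraries. The 10 macrophage markers summed to 378 to 571 and 275 to 555 CPM, and 7 fibroblast and endothelial markers to 221 to 483 and 144 to 216 CPM, without overlap. Of these 7, 6 were lower and 1 higher by sign in Nr3c1-Foxp3Cre libraries. The number with an adjusted p under 0.05 was 0 of 7, beside 0.0576% of all genes. Groups did not overlap for 3 of 7, 2 lower and 1 higher, beside 7.41% of all genes. Log2 fold changes were -1.87 for *Col1a1* (limma adjusted p = 0.120), -1.69 for *Col1a2* (limma adjusted p = 0.271) and -1.41 for *Col3a1*, whose groups overlapped. The endothelial markers differed from these, with -0.13 for *Kdr* and 0.28 for *Pecam1*. The 6 genes of the dendritic cell list summed to 1298 to 1455 and 1302 to 1411 CPM, but the genes differed widely. Their means over the 6 libraries were 10.02 log2 CPM for *Cd74*, 7.67 for *H2-Ab1* and 6.38 for *H2-Aa*. *Zbtb46* was at 4.86, *Xcr1* at 3.14 and *Flt3* at 0.63, so this sum does not measure dendritic cells alone. Lymphocyte markers other than those of CD4 T cells were low, with *Cd8b1* at 7.62 to 15.6 and 10.2 to 12.8 CPM and *Cd79b* of B cells at 14.1 to 23.4 and 15.1 to 21.3 CPM, while *Cd8a* and NK cell markers were not analysed here. In such bulk RNA, fewer cells of a type and less RNA per cell cannot be told apart.

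The mRNA of most of these receptors and adaptors was abundant, with *Tnfrsf25* near the middle of the table, and no difference between the genotypes was detected for any of the 10 genes. All 10 had a limma adjusted p of 1.0. The number with an adjusted p under 0.05 was 0 of 10, against 0.0576% of all genes tested (7 of 12153). At an unadjusted p under 0.05 it was 0 of 10, against 3.26% of all genes. The number whose groups did not overlap was also 0 of 10, against 7.41% of all genes. In Nr3c1-Foxp3Cre Tregs 4 members were higher and 6 lower by sign, with a median log2 fold change of -0.019, beside a median of -0.00145 over all genes. The log2 fold changes ran from -0.16 (*Cd27*) to 0.25 (*Tnfrsf25*), inside the range of -0.43 to 0.43 that holds the middle 90% of all genes. Their standard errors had a median of 0.157, against 0.181 over all genes. Both the range and this median over all genes include genes of every level, and they are not matched to the level of the members. With 3 libraries against 3, the exact two-sided permutation test gave p from 0.3 to 1 for single members, and the smallest p it allows is 0.1.

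**Figure D1:**
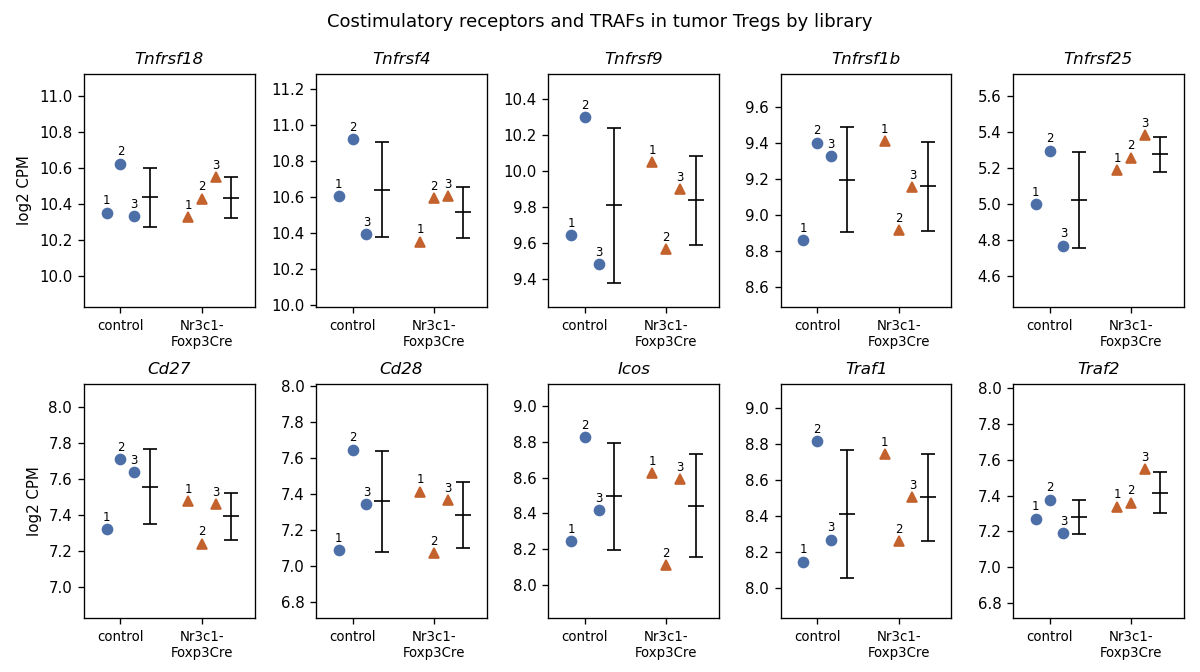
Level of each costimulatory gene (log2 CPM, vertical axis, same span in every panel) in the 3 control (circles) and 3 Nr3c1-Foxp3Cre libraries (triangles), numbered by replicate, with the group mean and SD beside the points. The groups overlap in all 10 panels, and control 2 is the highest library in 7 of them.

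GITR and OX40 were among the most abundant mRNAs of the table, above 99.6% and 99.7% of its genes. *Tnfrsf18* (ENSMUSG00000041954.18; chr4:156026164-156028895, plus strand), which encodes GITR, was at 10.35, 10.63 and 10.33 log2 CPM in the control and at 10.33, 10.43 and 10.55 in the Nr3c1-Foxp3Cre libraries. Control 2 was the highest library, the other 5 lay between 10.33 and 10.55, and the range over the 6 libraries, 0.298, was the narrowest among the members. The group means were equal to the second decimal, 10.44 ± 0.16 and 10.44 ± 0.11 (SD, n = 3 each), and the 95% confidence interval of the log2 fold change reached from -0.27 to 0.27, or 0.828-fold to 1.21-fold. An antisense gene, *Gm16008*, shares 414 of the 1524 exon bases of *Tnfrsf18*, and it was itself at 0.32 to 1.55 log2 CPM. Whether reads were counted by strand is not given in the sources used here, so reads of the shared bases cannot be assigned to one of the pair.

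*Tnfrsf4* (ENSMUSG00000029075.6; chr4:156013843-156016612, plus strand) encodes OX40, which sustains T cell survival after activation. Its level was 10.61, 10.92 and 10.40 log2 CPM in the control and 10.35, 10.59 and 10.61 in the Nr3c1-Foxp3Cre libraries. The highest value was a control library and the lowest an Nr3c1-Foxp3Cre library, with the other 4 intermixed. The means were 10.64 ± 0.26 and 10.52 ± 0.14 (SD, n = 3 each), a log2 fold change of -0.12 (SE 0.15, 95% confidence interval -0.46 to 0.21). This neighbor of *Tnfrsf18* shared with it the highest library, control 2, and the lowest, Nr3c1-Foxp3Cre 1.

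*Tnfrsf9* (ENSMUSG00000028965.13; chr4:150914562-150946102, plus strand) encodes 4-1BB, a receptor induced on activated T cells. The control libraries read 9.64, 10.30 and 9.48 log2 CPM and the Nr3c1-Foxp3Cre libraries 10.05, 9.56 and 9.90. All 3 Nr3c1-Foxp3Cre values lay between the lowest and the highest control value, and the spread over the 6 libraries, 0.817, was the widest among the members. The log2 fold change was 0.029 (SE 0.21, 95% confidence interval -0.44 to 0.50), which corresponds to 0.736-fold to 1.41-fold.

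*Tnfrsf1b* (ENSMUSG00000028599.10; chr4:145213463-145246870, minus strand) encodes TNFR2, the TNF receptor that Tregs carry at high levels. Its control libraries were at 8.86, 9.40 and 9.33 log2 CPM and its Nr3c1-Foxp3Cre libraries at 9.41, 8.92 and 9.15. Each genotype held values from about the lowest to about the highest of the 6. It had a log2 fold change of -0.037 (SE 0.17, 95% confidence interval -0.42 to 0.34).

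The least abundant member was *Tnfrsf25* (ENSMUSG00000024793.14; chr4:152115934-152120119, plus strand), which encodes DR3, the death domain receptor for TL1A, at a level above 53.9% of the genes. Its values were 5.0, 5.29 and 4.77 log2 CPM in the control and 5.19, 5.25 and 5.38 in the Nr3c1-Foxp3Cre libraries. One control library lay inside the Nr3c1-Foxp3Cre range and the other control libraries below it. The means were 5.02 ± 0.26 and 5.27 ± 0.098 (SD, n = 3 each), and the log2 fold change of 0.25 (SE 0.16, 95% confidence interval -0.11 to 0.62) was the largest among the members in this fit. Without control 3 it was 0.13, and that of *Tnfrsf4* was -0.25.

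*Cd27* (ENSMUSG00000030336.14; chr6:125232622-125237010, minus strand), whose product binds CD70, was at 7.32, 7.71 and 7.64 log2 CPM in the control and 7.48, 7.24 and 7.46 in the Nr3c1-Foxp3Cre libraries. Of the control libraries, 2 lay above all Nr3c1-Foxp3Cre libraries and control 1 lay among them. The log2 fold change was -0.16 (SE 0.13, 95% confidence interval -0.45 to 0.12), the most negative of the 10 in this fit. The microRNA gene *Mir8113* shares 129 of the 2328 exon bases of *Cd27*.

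Both CD28 family members gave the same picture. *Cd28* (ENSMUSG00000026012.2; chr1:60716800-60773359, plus strand), the receptor that gives the classic second signal to T cells, was at 7.09, 7.64 and 7.34 log2 CPM in the control and 7.41, 7.07 and 7.37 in the Nr3c1-Foxp3Cre libraries. *Icos* (ENSMUSG00000026009.14; chr1:60977927-61000320, plus strand), the inducible receptor carried by activated T cells, was at 8.25, 8.82 and 8.42 in the control and 8.62, 8.11 and 8.59 in the Nr3c1-Foxp3Cre libraries. For both genes control 2 was the highest and Nr3c1-Foxp3Cre 2 the lowest library, and the groups overlapped. *Cd28* had a log2 fold change of -0.074 (SE 0.15, 95% confidence interval -0.42 to 0.27). For *Icos* it was -0.053 (SE 0.18, 95% confidence interval -0.45 to 0.35).

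The adaptors that carry the signal of the TNF receptors were also at similar levels. *Traf1* (ENSMUSG00000026875.14; chr2:34941750-34961772, minus strand), an NF-κB-inducible adaptor that pairs with TRAF2, was at 8.15, 8.82 and 8.27 log2 CPM in the control and 8.75, 8.26 and 8.51 in the Nr3c1-Foxp3Cre libraries. *Traf2* (ENSMUSG00000026942.13; chr2:25517982-25546940, minus strand), which binds the receptor tails and recruits the ubiquitin ligases cIAP1 and cIAP2, was at 7.27, 7.38 and 7.19 in the control and 7.34, 7.36 and 7.55 in the Nr3c1-Foxp3Cre libraries. *Traf1* spread over 0.670 and *Traf2* over 0.356 on the log2 scale, with control 2 highest for the former and Nr3c1-Foxp3Cre 3 for the latter. *Traf1* had a log2 fold change of 0.093 (SE 0.18, 95% confidence interval -0.32 to 0.51). For *Traf2* it was 0.14 (SE 0.10, 95% confidence interval -0.094 to 0.36).

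**Figure D2:**
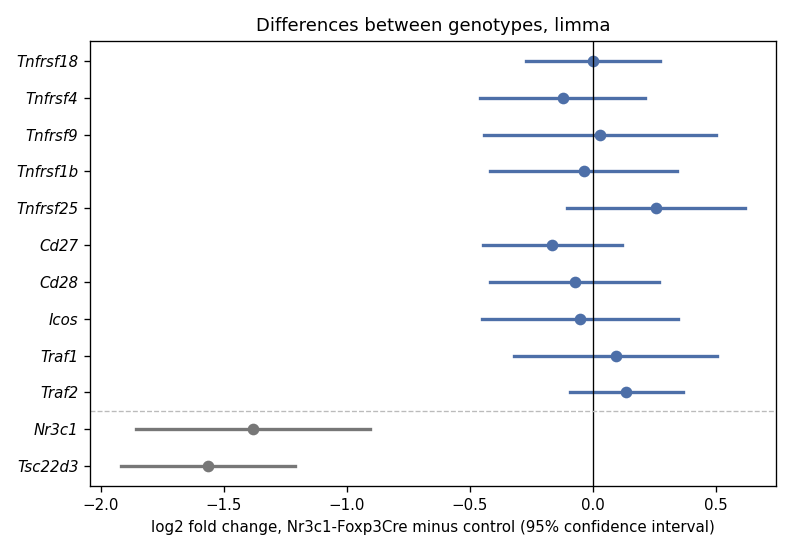
Log2 fold change (Nr3c1-Foxp3Cre minus control, horizontal axis) of each costimulatory gene as a point with its 95% confidence interval from limma as a line (blue), above those of *Nr3c1* and *Tsc22d3* (gray), which check the labels. All 10 blue intervals cross 0, and the widest, of *Tnfrsf9*, runs from -0.44 to 0.50, whereas the gray points lie at -1.38 and -1.56.

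Levels of different genes were compared per kb of the longest coding transcript. The order of the geometric mean levels ran from *Tnfrsf4* (1486 CPM per kb) and *Tnfrsf18* (1166) through *Tnfrsf9* (428) and *Tnfrsf1b* (152) to *Cd27* (114), *Icos* (109) and *Traf1* (102), and then to *Traf2* (53.5), *Cd28* (36.8) and *Tnfrsf25* (21.3). Each gene was above the next in 6 of 6 libraries, except that *Cd27* was above *Icos* in 3 of 6 and *Icos* above *Traf1* in 4 of 6. On this length the levels of *Cd27*, *Icos* and *Traf1* did not separate in every library. Per kb of all exons they did, in the order *Icos* (103 CPM per kb), *Cd27* (76.5) and *Traf1* (39.8), each above the next in 6 of 6 libraries, so their order depends on the length used. The OX40 and GITR transcripts stood above every other member in each library of both genotypes on this scale.

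The members varied between libraries of the same genotype. Their range over the 6 libraries was 0.298 (*Tnfrsf18*) to 0.817 (*Tnfrsf9*) on the log2 scale. Control 2 was the highest library for 7 of the 10 members, whereas it was the highest for 19.5% of all genes, and it was the lowest for 0. The mean deviation of the members from their means over all libraries was -0.17, 0.27 and -0.11 in the control and 0.069, -0.14 and 0.082 in the Nr3c1-Foxp3Cre libraries, so each genotype held libraries above and below. The levels of marker genes moved between libraries too: the mean of the melanoma list was 9.88, 8.41 and 9.49 log2 CPM in the control and 9.26, 9.90 and 8.49 in the Nr3c1-Foxp3Cre libraries. The 2 libraries with the lowest melanoma level, control 2 and Nr3c1-Foxp3Cre 3, had the highest member deviations, and the 2 with the highest, control 1 and Nr3c1-Foxp3Cre 2, had the lowest. The mean of 7 T cell genes was 8.84, 9.22 and 9.11 in the control and 9.07, 8.92 and 9.10 in the Nr3c1-Foxp3Cre libraries, lowest in those same 2 libraries. The part of the melanoma and T cell levels in the members' spread was not tested.

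**Figure D3:**
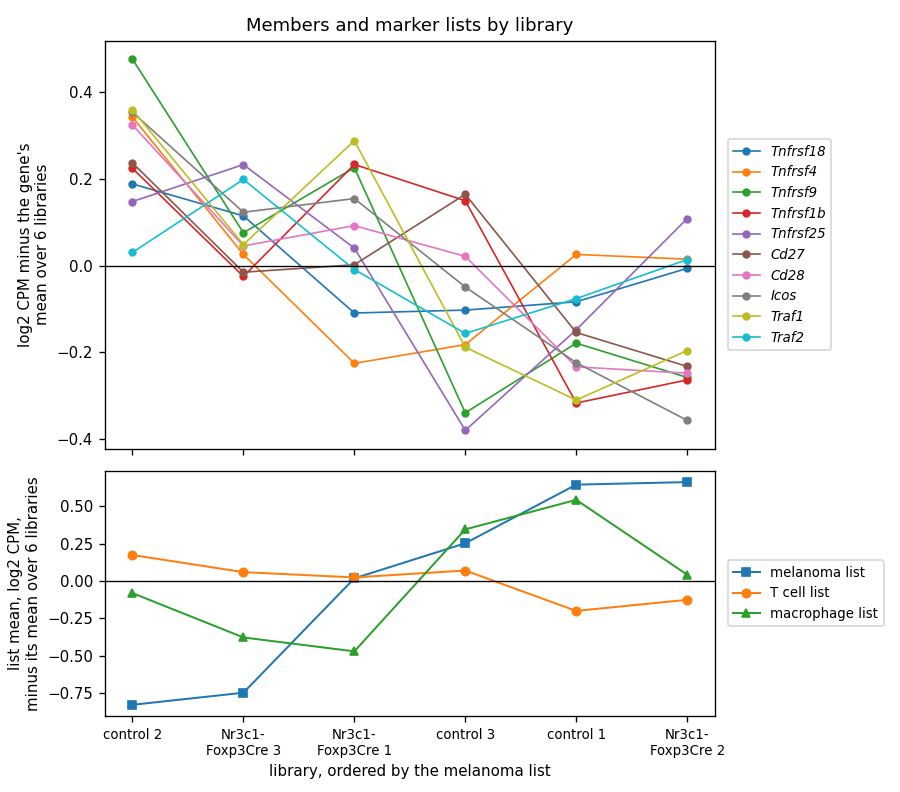
Upper panel, the level of each of the 10 costimulatory genes minus its mean over 6 libraries (log2 CPM, vertical axis), 1 line a gene, and lower panel, the mean log2 CPM of the melanoma, T cell and macrophage lists minus its mean over 6 libraries, with the libraries ordered along the horizontal axis from the lowest to the highest melanoma level. All 10 genes are above their mean in control 2, at the left, where the melanoma list is at its lowest level of 8.41, and the libraries of the 2 genotypes are mixed along the axis.

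When each library was centered on the mean of the T cell list, the range of 8 of the members became narrower and that of *Tnfrsf25* and *Traf2* wider, with *Cd27* from 0.470 to 0.202 and *Icos* from 0.712 to 0.413. *Cd27* then read 7.52, 7.54 and 7.57 log2 CPM in the control and 7.45, 7.37 and 7.40 in the Nr3c1-Foxp3Cre libraries, with every Nr3c1-Foxp3Cre library below every control library. Its log2 fold change on that scale was -0.14 (SE 0.12, limma adjusted p = 1.0), and it was the 1 member of 10 whose groups did not overlap, beside 7.04% of all genes under this centering. With the mean of the melanoma list as a covariate, the residual SD fell for every member, by unlike amounts. It went from 0.292 to 0.140 for *Icos* and from 0.237 to 0.128 for *Cd28*, but from 0.212 to 0.207 for *Tnfrsf4*. In that fit 0 members had an adjusted p under 0.05. By residual SD, T cell centering took *Tnfrsf4* from 0.212 to 0.231, although its range became narrower.

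A covariate for macrophage markers changed the estimates of several members. The 10 macrophage markers were all lower by sign in Nr3c1-Foxp3Cre libraries, and 0 of them had an unadjusted p under 0.05. Their mean was 4.66, 4.04 and 4.46 log2 CPM in the control and 3.65, 4.16 and 3.74 in the Nr3c1-Foxp3Cre libraries. With this mean in the fit, 6 of the 10 members had an unadjusted p under 0.05, against 15.2% of all genes in the same fit, and 0 had an adjusted p under 0.05. The 6 were lower in Nr3c1-Foxp3Cre Tregs, with log2 fold changes of -0.58 for *Icos* (SE 0.11, limma adjusted p = 0.0641), -0.54 for *Tnfrsf9*, -0.50 for *Cd28*, -0.47 for *Tnfrsf1b*, -0.44 for *Cd27* and -0.44 for *Traf1*. For *Tnfrsf9* and *Traf1* this turned the sign of the estimate. Because the macrophage level itself differed in mean between the genotypes, the covariate shares part of the comparison, and its part in the members' levels was not tested.

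The ligands of these receptors, with *Ltb* of the TNF family beside them, were read from a list of 11. Of these, 8 had values, while *Tnfsf18*, *Tnfsf4* and *Tnfsf15* were not analysed here. Of the 8, 5 were higher and 3 lower by sign, with a median log2 fold change of 0.10 against -0.00145 over all genes. The number that passed the adjusted threshold was 0, beside 0.0576% of all genes. *Tnf*, the ligand of TNFR2, was at 3.68, 3.69 and 3.67 log2 CPM in the control and 4.31, 4.09 and 4.83 in the Nr3c1-Foxp3Cre libraries. Its 3 Nr3c1-Foxp3Cre libraries all lay above the controls, which were close to each other. Its level was above 36.2% of the genes. It was the 1 ligand of the 8 without overlap, beside 7.41% of all genes. It was also the 1 with an unadjusted p under 0.05, beside 3.26% of all genes. The log2 fold change was 0.72 (SE 0.22, 95% confidence interval 0.24 to 1.21, limma adjusted p = 1.0), and the exact permutation test gave p = 0.1, the smallest it allows. The others overlapped between the genotypes, with log2 fold changes of 0.28 for *Lta*, 0.26 for *Tnfsf9* (the 4-1BB ligand), 0.15 for *Ltb*, 0.05 for *Icosl*, -0.14 for *Cd70*, -0.16 for *Cd80* and -0.28 for *Cd86*, the last 2 encoding the B7 ligands of CD28. *Ltb* was the most abundant mRNA of the list before any correction for length, at 10.06 to 10.48 log2 CPM. The receptor of its product is encoded by *Ltbr*, which is not one of the 10 members.

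Among 15 other TNF receptors with values, of 17 listed, 9 were higher and 6 lower by sign, with a median log2 fold change of 0.054. *Tnfrsf11a*, which encodes RANK, was at 1.66, 1.44 and 1.12 log2 CPM in the control and 0.50, -0.25 and -0.64 in the Nr3c1-Foxp3Cre libraries. All 3 Nr3c1-Foxp3Cre libraries were below the controls, at a level above only 3.37% of the genes. The log2 fold change was -1.53 (SE 0.44, limma adjusted p = 1.0), and the gene did not pass the threshold. *Tnfrsf13b*, which encodes TACI, did not overlap either, with a log2 fold change of 0.33 (SE 0.16), and was named after its values were seen. Of the 15 genes, 1 had an unadjusted p under 0.05, beside 3.26% of all genes, and 2 had groups without overlap, beside 7.41% of all genes.

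The other members of the CD28 family are inhibitory. *Ctla4*, which competes with CD28 for its ligands, was at 9.22, 10.02 and 9.71 log2 CPM in the control and 9.55, 8.95 and 9.23 in the Nr3c1-Foxp3Cre libraries. The groups overlapped, with control 2 highest and Nr3c1-Foxp3Cre 2 lowest, as for *Cd28* and *Icos*. The same order was seen for *Cd27* on chromosome 6 and for *Pdcd1*, so it was not particular to these neighbors. Its log2 fold change was -0.40 (SE 0.21, 95% confidence interval -0.88 to 0.07). Of the 3 genes of this list 2 were lower and 1 higher by sign, with -0.34 for *Pdcd1*, which is also the median, and 0.035 for *Btla*. The number with an unadjusted p under 0.05 was 0 of 3, beside 3.26% of all genes.

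Genes that act below the receptors were read in 3 further lists. Of 21 other TRAFs and receptor adaptors 13 were higher and 8 lower by sign (median 0.061). *Map3k7*, which encodes the kinase TAK1, was the 1 gene of the 21 without overlap, beside 7.41% of all genes. Its log2 fold change was 0.19 (SE 0.10), and it was named after its values were seen. Of 11 core NF-κB genes 8 were higher and 3 lower (median 0.012), and of 16 CD28 and ICOS signaling genes 10 were higher and 6 lower (median 0.079). In these 3 lists 0 genes passed at an adjusted p under 0.05, and 0 at an unadjusted p under 0.05, beside 0.0576% and 3.26% of all genes.

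**Figure D4:**
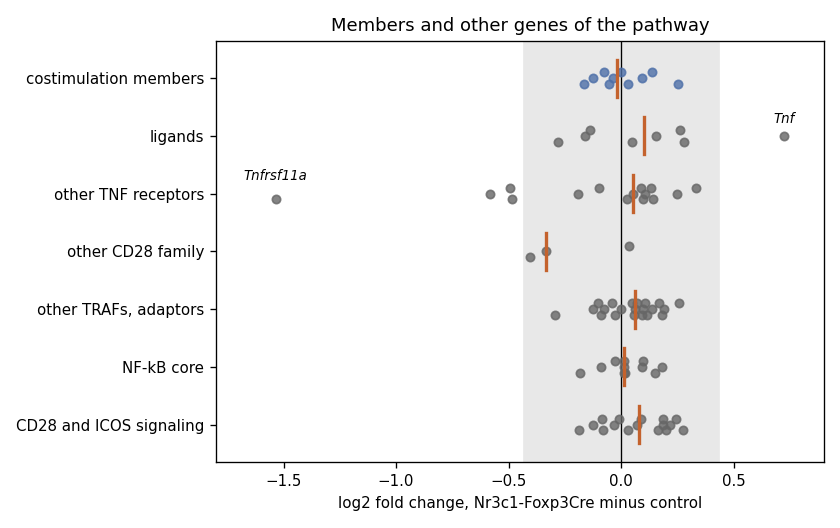
Log2 fold change (Nr3c1-Foxp3Cre minus control, horizontal axis) of each of the 10 costimulatory genes (blue) and of the genes of 6 lists around them (gray), 1 row a list and 1 point a gene, with a vertical bar at the median of each list and a gray band over the middle 90% of all 12153 genes (-0.43 to 0.43). *Tnf* at 0.72 and *Tnfrsf11a* at -1.53 lie farthest from 0, and neither had an adjusted p under 0.05.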

How the data were processed

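Bulk RNA-seq of tumor Tregs was read from 6 libraries, 3 control and 3 Nr3c1-Foxp3Cre, grouped by the genotype in the labels. The authors made cDNA with a SMARTer Ultra Low Input kit and libraries with Nextera XT, used Cutadapt for trimming, STAR for alignment to mm10 and RSEM with GENCODE M21 for expected counts, then removed low genes and quantile normalized the libraries. The deposited values are log2 CPM from the authors. They sum to 999633 or 999634 CPM per library, so depth is unknown, intervals reflect replicates only, and quantile normalization can hide a change shared by most genes.

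The 12153 genes entered 1 limma fit (version 3.58.1, R 4.3.3; lmFit, eBayes with trend, genotype only), since voom weights need counts. P-values were adjusted by Benjamini-Hochberg over all genes, with a threshold of 0.05. Single genes were also compared by an exact two-sided permutation test. The fit was also run on 5 simulations with 200 changed genes each and noise drawn independently for each gene. Their outcome is not given here, and they do not cover shifts that many genes of a library share. Positions and lengths came from GENCODE M21, which matched 12130 genes (99.81%), and start regions from RefSeq. Named genes were the members, *Nr3c1*, *Tsc22d3*, the ligands, and from each pathway list the genes with an adjusted p under 0.05 and up to 3 with the largest change among those with an unadjusted p under 0.05 and no overlap. *Tnfrsf13b*, *Map3k7*, *Ctla4*, *Pdcd1*, *Btla* and the cell type markers fall outside this rule. The members and lists were chosen with earlier results of these data known. Alternatives were other eBayes settings, quality weights, a filter, a pseudocount of 1, other scalings, marker covariates, the replicate block and leaving out each library.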

Additional observations from a re-analysis of the deposited data

How the results depend on the processing

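The number of members with an adjusted p under 0.05 was 0 in each of the 17 alternatives run. Over 170 member values under these alternatives, 147 kept their sign and 23 changed it. The cause of the differences that follow was not tested. The fit called 1 gene higher and 6 lower over all genes. Without the eBayes trend it called 0 and 0, with sample quality weights 7 and 12, with the melanoma covariate 4 and 14, with the macrophage covariate 11 and 32, and centered on the T cell list it called 3 lower. Leaving out 1 library gave 0 to 3 higher and 0 to 5 lower, with 0 genes in all without control 3 or without Nr3c1-Foxp3Cre 2. Members with an unadjusted p under 0.05 numbered 0, but 3 with quality weights (*Tnfrsf25* 0.46, *Cd27* -0.22, *Traf2* 0.21, against 11.3% of all genes), 6 with the macrophage covariate, and 0 to 1 when 1 library was left out (*Cd27* without control 1, against 3.18% of all genes, and *Tnfrsf25* without control 2, against 5.78%). Members without overlap numbered 1 centered on the T cell list and 0 to 2 with 1 library left out, the 2 without control 2, where 20% of all genes did not overlap, and 13.2% to 20% over these fits. The sign changed with quality weights for *Tnfrsf18* (0.085), *Tnfrsf4* (0.070) and *Icos* (0.037), with T cell centering for *Tnfrsf18* (0.028), and with the macrophage covariate for *Tnfrsf9* (-0.54) and *Traf1* (-0.44). Leaving out 1 library gave log2 fold changes of -0.059 to 0.093 for *Tnfrsf18*, -0.25 to 0.017 for *Tnfrsf4*, -0.13 to 0.27 for *Tnfrsf9*, -0.21 to 0.085 for *Tnfrsf1b*, -0.21 to 0.069 for *Cd28*, -0.18 to 0.11 for *Icos* and -0.039 to 0.30 for *Traf1*. With 1 library left out, *Tnfrsf25* ran from 0.13 to 0.39, *Cd27* from -0.28 to -0.087 and *Traf2* from 0.070 to 0.18. These genes kept their sign in all 17 alternatives. Over the 17, *Tnfrsf25* ran from 0.070 to 0.46, *Cd27* from -0.44 to -0.087 and *Traf2* from 0.046 to 0.21. The call of *Tsc22d3* was kept in 11 of the 17 and lost in 6: without the trend (limma adjusted p = 0.221), under the replicate block (0.137), without control 3 and without each Nr3c1-Foxp3Cre library. Under the replicate block, 0 genes were called higher and 0 lower, and 275 had an unadjusted p under 0.05. Deviations of same-numbered libraries had correlations of -0.33 to -0.025 across genes, and 0 of 6 libraries correlated best with its own number. With 3 libraries a group, these correlations cannot decide whether libraries of the same number shared a batch. Depth is unknown, and 3 libraries a group leave intervals as wide as that of *Tnfrsf9*.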

Other observations

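Differences within a library were read for 6 pairs of genes chosen after their values were seen, and they are given as values only. *Icos* minus its neighbor *Ctla4* was -0.97, -1.20 and -1.29 on the log2 scale in the control and -0.93, -0.84 and -0.64 in the Nr3c1-Foxp3Cre libraries, so *Ctla4* stood less far above *Icos* in each Nr3c1-Foxp3Cre library than in any control library. The mean of this difference was 0.35 higher in Nr3c1-Foxp3Cre Tregs. Measured from *Ctla4* in the same way, 4 of the 10 members (*Tnfrsf9*, *Tnfrsf1b*, *Icos* and *Traf1*) had groups that did not overlap, against 13.7% of the 5903 genes with a mean log2 CPM of at least 5. *Ctla4* itself had a log2 fold change of -0.40. The 4 share its values, so they are not independent of each other or of that difference. The 5903 genes were chosen by level only and are not matched to genes of T cells, so their share is not a like background.

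The other pairs overlapped between the genotypes. *Icos* minus *Cd28*, on either side of *Ctla4*, was 1.08 to 1.179 in the control and 1.04 to 1.23 in the Nr3c1-Foxp3Cre libraries, a range of 0.187 over the 6 libraries, where *Icos* alone ranged over 0.712 and *Cd28* over 0.573. *Tnfrsf9* minus *Traf1* was 1.21 to 1.50 and 1.304 to 1.39, a range of 0.283 beside 0.817 for *Tnfrsf9* alone. *Traf1* minus *Traf2* was 0.876 to 1.44 and 0.8998 to 1.41, a range of 0.564, wider than the 0.356 of *Traf2* alone. *Tnfrsf18* minus *Tnfrsf4* was -0.30 to -0.062 and -0.16 to -0.026. The receptor *Tnfrsf9* stood 4.48 to 5.18 above its ligand *Tnfsf9* in the control and 4.43 to 4.94 above it in the Nr3c1-Foxp3Cre libraries.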
